A study of Caenorhabditis elegans with 6 samples.

Results

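The pals genes are a Caenorhabditis elegans family defined by a protein signature, the ALS2CR12 signature, whose biochemical activity is not known. Members were all rows of the deposited table whose WormBase symbol is pals- plus a number, whether detected or not. There were 38 such rows of 45343 in the table. The reference gene tables hold 39 pals symbols, and pals-21 was not analysed here. By the annotation 37 of the 38 are protein-coding, and pals-36 is a pseudogene.

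Whole larvae at the middle of L3, the third larval stage, gave 3 messenger RNA libraries from blmp-1(tm548) mutants and 3 from the N2 Bristol wild type (WT). Larvae of both groups had been synchronized by bleaching and raised on NGM plates. BLMP-1 is a transcription factor with zinc fingers and the worm counterpart of mammalian Blimp-1. What tm548 removes from the gene is not stated in the labels, nor how replicate cultures were kept apart, so a p-value measures the spread between these libraries only.

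Many pals genes are induced together when C. elegans is infected in the intestine by microsporidia or by the Orsay virus. This transcriptional program is called the intracellular pathogen response (IPR), and a reporter of pals-5 is its usual marker. Members of the family also control it. The protein PALS-22 holds the response off and its genomic neighbour PALS-25 turns it on, and PALS-17 holds it off while PALS-16 and PALS-20 act in the opposite direction.

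Levels are gene-level FPKM, which are read numbers divided by transcript length and library depth. Depth was estimated from steps in the low values, searched within a range set beforehand. It lay between 7420000 and 7900000 reads in mutant libraries and between 7450000 and 7990000 in WT libraries. On that estimate 1 FPKM on 1 kb is about 7.75 reads. The genotype labels were checked on the target gene. The blmp-1 transcript had 40.3, 36.9 and 38.0 FPKM in mutant libraries, against 64.9, 71.1 and 75.2 FPKM in WT libraries (log2 difference -0.86, limma adjusted p = 0.00299). Markers of intestine, epidermis, body wall muscle, neurons and germline were all above 0 in the libraries. Summed FPKM lay between 1699 and 1769 in mutant libraries and between 1788 and 1894 in WT libraries for 14 intestine markers, and between 781 and 850 against 681 to 778 for 12 germline markers. It was 1351 to 1429 in mutant libraries and 1340 to 1416 in WT libraries for 13 epidermis markers, 1686 to 1815 and 1665 to 1822 for 10 muscle markers, and 696 to 724 and 691 to 695 for 10 neuron markers. The sum of the 6 yolk genes, which are made by the adult intestine, was 72.2 to 156 FPKM in mutant libraries and 124 to 532 FPKM in WT libraries. All 6 had a log2 difference below 0, with a median of -1.86 beside 0.00 over all tested features, and limma called 0 of them. In 4 of the 6 all mutant values lay below all WT values, as in 2565 of 17058 tested features. WT replicate 3 was the lowest WT library in each of the 6. For vit-5 it had 15.5 FPKM, against 59.5 and 82.0 FPKM in WT replicates 1 and 2. Of the marker lists, mtl-2 of the intestine and che-14 of the epidermis fell, the only 2 called of 65 marker and yolk genes tested (3.08%, where 3.06% of all tested features were called lower), and both were singled out after their values were seen. The part of these markers in the pals results was not tested. In RNA of whole animals, fewer cells of a type and less RNA per cell cannot be told apart.

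Levels in the family spanned 0 to over 50 FPKM. Members were grouped by position where consecutive ones on a chromosome lay at most 50000 bases apart in the WBcel235 annotation, which gave 11 groups. Chromosome I carries 15 members, III carries 13, IV carries 2 and V carries 8. The 8 members with a mean of at least 10 FPKM over the 6 libraries all lay on chromosome III. They were pals-22, pals-23, pals-24 and pals-25, which form 1 group, and pals-16, pals-17, pals-18 and pals-19, which lie in another group with pals-20 and pals-40. Their means ran from 16.1 FPKM for pals-25 to 46.6 FPKM for pals-23. No other member had a mean above 8.04 FPKM, the value of pals-34.

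**Figure D1:**
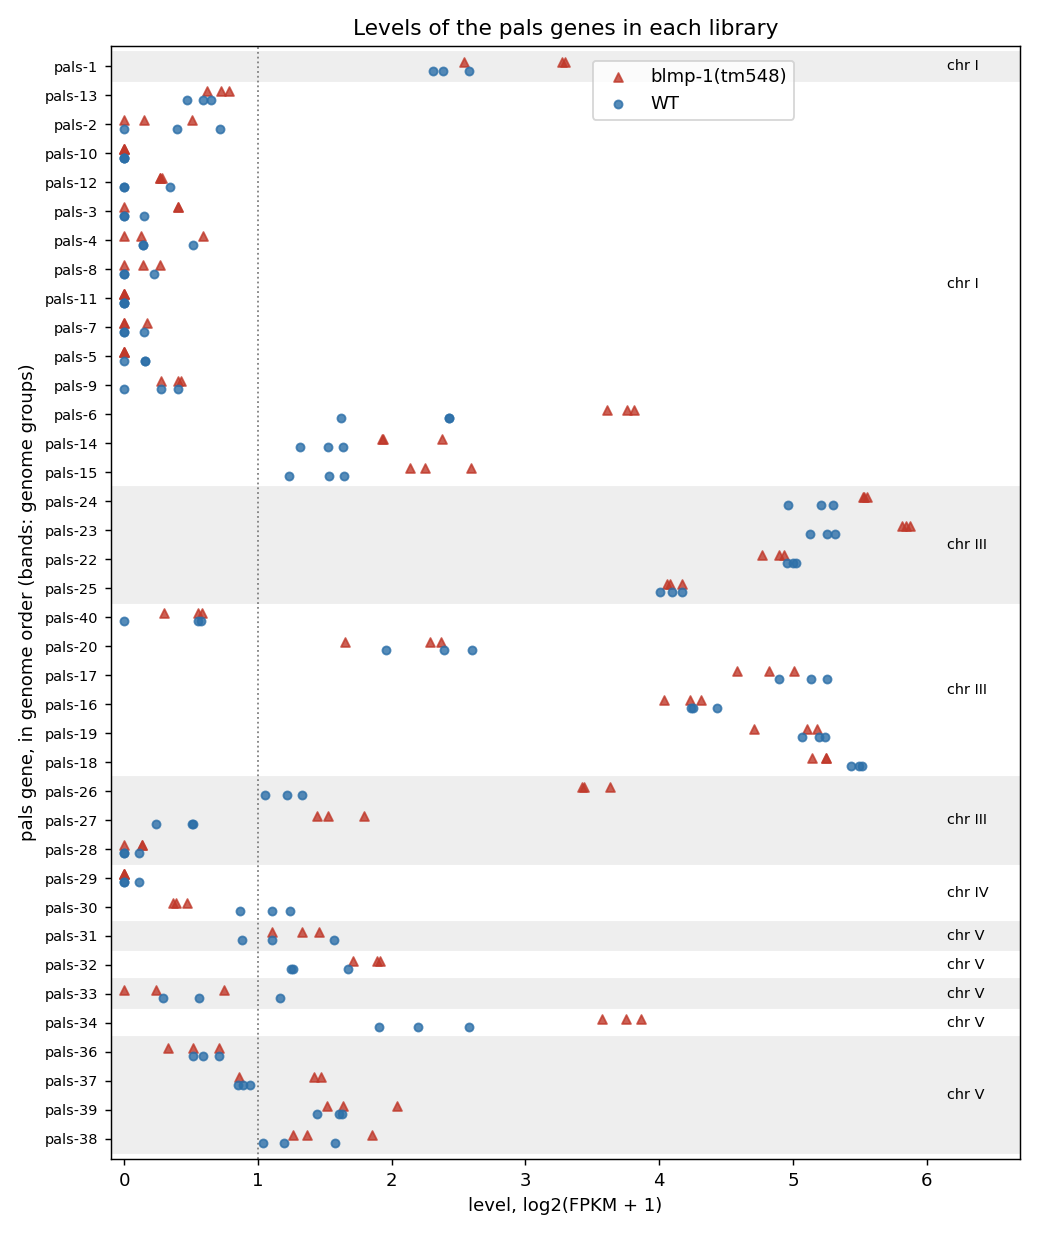
Level of each of the 38 pals genes as log2(FPKM + 1), with 3 blmp-1(tm548) libraries (triangles) and 3 WT libraries (circles) per gene. Genes are in genome order, shaded bands mark groups on one chromosome, and the dotted line marks 1 FPKM. The 8 genes to the right lie in 2 groups on chromosome III, and most of the largest group on chromosome I lies left of the line.

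A total of 21 members had a mean of at least 1 FPKM over the 6 libraries and were tested, and 17 fell below it. The test was limma on log2(FPKM + 1), fitted on all 17058 features with such a mean, with Benjamini-Hochberg adjustment over all of them. In the mutant 5 members rose, namely pals-6, pals-23, pals-26, pals-27 and pals-34, and 0 fell. The rises are 23.8% of the tested members, where 3.34% of all tested features were called higher, 3.06% lower and 6.40% in either direction. At an unadjusted p under 0.05, 9 of the 21 were higher and 1 was lower, where 11.1% and 11.8% of all tested features were. Values in the mutant lay above all WT values for 9 of the 21 members, where 13.7% of all tested features did so. With the 2 members that lay below all WT values the groups were apart in 11 of 21, against 28.7% of all tested features. Of the 21, pals-27 and pals-37 had a WT mean below 1 FPKM and passed the filter only through the mutant libraries. The counts above of members called, higher at an unadjusted p under 0.05, and above all WT values each include pals-27. Among the 19 tested members without these 2, those called were pals-6, pals-23, pals-26 and pals-34. The median log2 difference was 0.35 over the 21 and 0.22 without these 2, beside 0.00 over all features tested. It was 0.11 over the 36 members above 0 in any library when no filter was used, 0.20 with a minimum mean of 5 FPKM, 0.12 with quantile normalization and 0.23 without mutant replicate 1. With mutant replicate 1 or 2 left out 2 members rose, and with any other single library left out 4 rose.

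**Figure D2:**
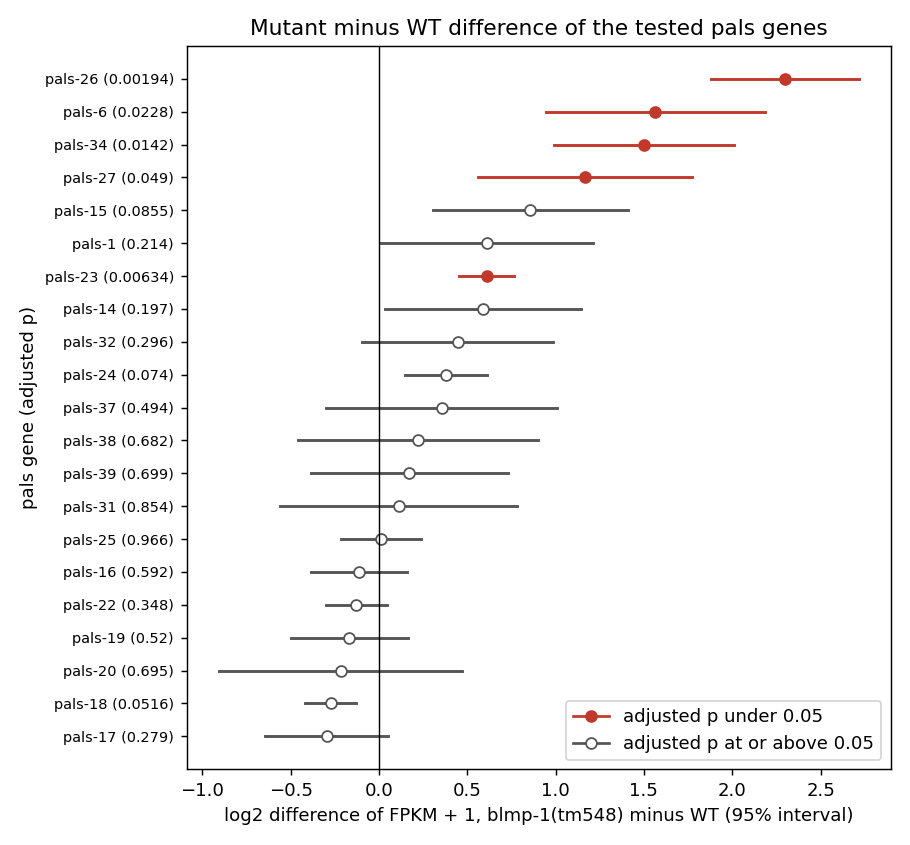
Log2 difference of FPKM + 1, blmp-1(tm548) minus WT, with its 95% interval for the 21 tested pals genes, the adjusted p in brackets. The 5 filled points passed the threshold, all to the right of 0, from 0.61 for pals-23 to 2.3 for pals-26.

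The largest rise was that of pals-26 (B0284.1, chromosome III). It had 11.4, 9.70 and 9.86 FPKM in mutant libraries, against 1.32, 1.51 and 1.08 FPKM in WT libraries. The 2 groups were far apart, and neither varied much. The means were 10.3 ± 0.939 and 1.30 ± 0.217 FPKM (SD, n = 3 each), a ratio of 7.92. On the log2(FPKM + 1) scale, which understates the change of low genes, the difference was 2.3 (SE 0.172, limma adjusted p = 0.00194). These values correspond to about 652 reads over the 3 mutant libraries and 82.3 over the 3 WT libraries.

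Its neighbour pals-27 (B0284.2) was lower in level and moved the same way. Its values were 2.47, 1.87 and 1.72 FPKM in mutant libraries, against 0.421, 0.180 and 0.429 FPKM in WT libraries. Each mutant value was above each WT value, with a log2 difference of 1.17 (SE 0.249) at an adjusted p of 0.0490 by limma. This call rested on about 71.5 reads in the mutant libraries and 12.2 in the WT libraries. It lay close to the threshold and was lost in 11 of 14 alternative settings in which the gene was tested (adjusted p over the 14 from 0.00729 to 0.268). The last member of the group, pals-28, was near 0, with 0.0961, 0.0960 and 0 FPKM in mutant libraries and 0.0793, 0 and 0 FPKM in WT libraries, or about 2.0 reads against 0.8. The protein-coding gene B0284.3 lies between pals-26 and pals-27 on the opposite strand. It averaged 20.4 FPKM in the mutant and 18.4 FPKM in WT and did not pass (log2 difference 0.14, limma adjusted p = 0.408).

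On chromosome I, pals-6 (C17H1.7) rose. It had 12.5, 11.2 and 13.05 FPKM in mutant libraries, against 4.39, 2.07 and 4.39 FPKM in WT libraries. The lowest mutant library was above the highest WT library. The log2 difference was 1.57 (SE 0.255, limma adjusted p = 0.0228) and the ratio of means 3.39. Without mutant replicate 1, 2 or 3 the adjusted p was 0.0923, 0.0786 and 0.0538.

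The next genes along the chromosome, pals-14 (F22G12.1) and pals-15 (F22G12.7), had groups that did not overlap but did not pass the test. The values of pals-14 were 4.2, 2.83 and 2.80 FPKM in mutant libraries, against 1.87, 2.12 and 1.48 FPKM in WT libraries (log2 difference 0.59, adjusted p = 0.197). Those of pals-15 were 3.75, 3.39 and 5.03 FPKM in mutant libraries, against 2.12, 1.89 and 1.35 FPKM in WT libraries (log2 difference 0.86, adjusted p = 0.0855). In both genes the gap between the groups was smaller than the range of the mutant libraries. The 11 remaining members of this group of 14 were not tested. Among these pals-10 and pals-11 were at 0 in all 6 libraries, and the highest mean of the other 9 was that of pals-13, with 0.635 ± 0.0923 FPKM in the mutant and 0.487 ± 0.0960 FPKM in WT (SD, n = 3 each).

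The IPR marker pals-5 (C17H1.6) belongs to this same group and was next to undetected. It was listed at 0 in all 3 mutant libraries, against 0.112, 0 and 0.114 FPKM in WT libraries. That is 0 reads in the mutant and about 2.0 in WT. With so few reads in WT a fall was not detectable at this depth, and no rise was seen in the mutant libraries. Apart on the same chromosome lies pals-1 (F15D3.8). It had 8.81, 8.67 and 4.83 FPKM in mutant libraries, against 4.22, 3.96 and 4.98 FPKM in WT libraries. Mutant replicate 3 fell among the WT values while the other mutant libraries were above them, and the gene did not pass (log2 difference 0.61, limma adjusted p = 0.214). Without that library it passed (adjusted p = 0.0449).

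On chromosome V, pals-34 (F26D11.6) rose. Its values were 12.5, 10.9 and 13.5 FPKM in mutant libraries, against 3.60, 2.75 and 4.97 FPKM in WT libraries. The groups were well separated, with means of 12.3 ± 1.33 and 3.77 ± 1.12 FPKM (SD, n = 3 each), a log2 difference of 1.5 (SE 0.209) and a limma adjusted p of 0.0142. Without mutant replicate 1 or 2 the adjusted p was 0.0653 and 0.052.

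The other 7 members on chromosome V were low and did not pass or were not tested. The values of pals-32 were 2.71, 2.28 and 2.77 FPKM in mutant libraries, against 1.39, 1.38 and 2.19 FPKM in WT libraries (log2 difference 0.45, limma adjusted p = 0.296). The mutant libraries were higher in each case, by little over WT replicate 3. For pals-31, pals-37, pals-38 and pals-39 the groups overlapped, with means of 1.42 to 2.36 FPKM in the mutant and 0.860 to 1.95 FPKM in WT and log2 differences between 0.11 and 0.35. The untested pals-33 and pals-36 averaged 0.286 and 0.440 FPKM in the mutant and 0.644 and 0.523 FPKM in WT, and their groups overlapped.

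**Figure D3:**
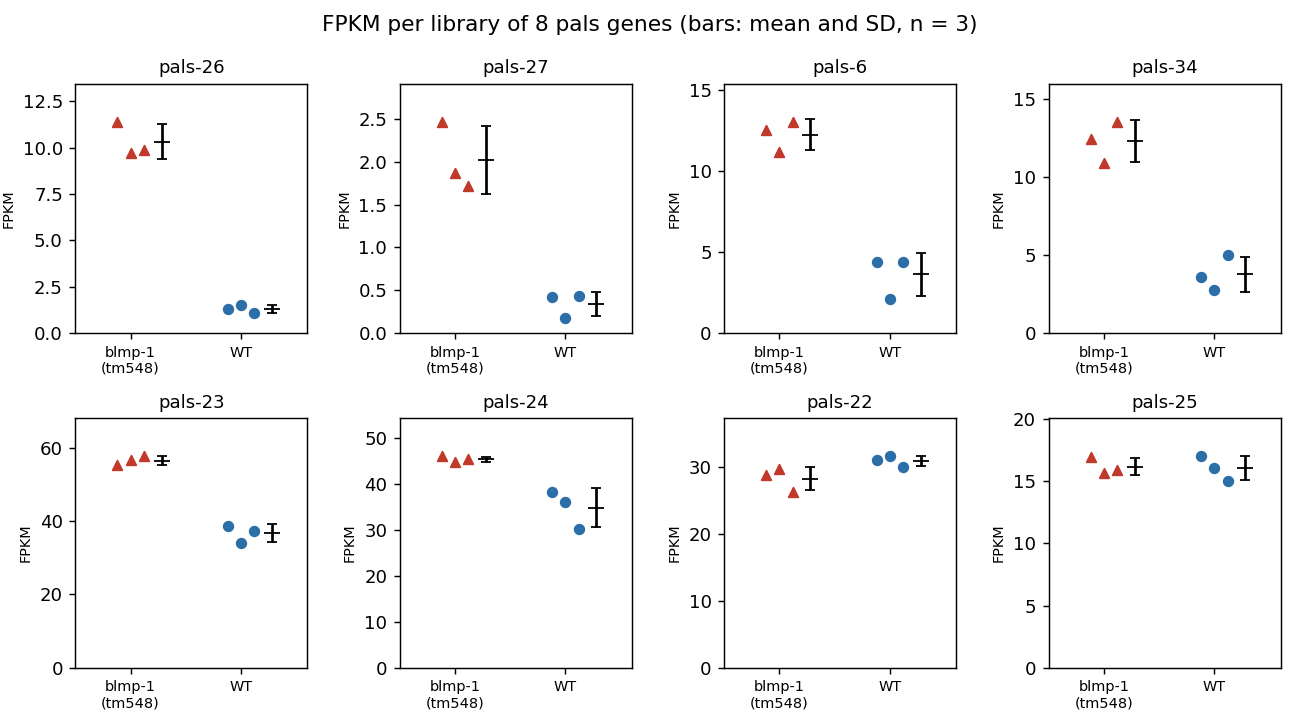
FPKM per library of 8 pals genes, blmp-1(tm548) (triangles, left) beside WT (circles, right) in each panel, with the mean and SD of 3 libraries as bars. The groups are apart in pals-26, pals-27, pals-6, pals-34, pals-23 and pals-24, close in pals-22 (26.3 to 29.6 against 29.98 to 31.5 FPKM), and overlapping in pals-25.

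Among the abundant members, pals-23 (C29F9.3, chromosome III) rose. It had 55.2, 56.6 and 57.6 FPKM in mutant libraries, against 38.8, 34.02 and 37.2 FPKM in WT libraries. The spread within each group was small beside the gap. Its log2 difference was 0.61 (SE 0.0641, limma adjusted p = 0.00634), a smaller change than that of the other 4 called members on a level several times higher.

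In the same group, pals-24 (C29F9.4) had 46.0, 44.9 and 45.3 FPKM in mutant libraries, against 38.3, 36.0 and 30.1 FPKM in WT libraries. The mutant libraries were higher, WT replicate 3 stood below the other WT libraries, and the gene did not pass (log2 difference 0.38, limma adjusted p = 0.0740).

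The group also holds the pair of opposing regulators. The repressor gene pals-22 (C29F9.1) had 28.7, 29.6 and 26.3 FPKM in mutant libraries, against 31.0, 31.5 and 29.98 FPKM in WT libraries. The mutant values were slightly below the WT values and did not pass, with a log2 difference of -0.13 (95% interval -0.30 to 0.05, limma adjusted p = 0.348). The activator gene pals-25 (T17A3.2) had 16.96, 15.6 and 15.9 FPKM in mutant libraries, against 17.004, 16.1 and 15.1 FPKM in WT libraries. These values interleave, and the interval of the log2 difference ran from -0.21 to 0.24 (limma adjusted p = 0.966).

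The second group of regulators on chromosome III had no called member. The repressor gene pals-17 (Y82E9BR.13) had 31.2, 27.2 and 22.9 FPKM in mutant libraries, against 37.2, 34.2 and 28.8 FPKM in WT libraries, with overlap between the groups (log2 difference -0.30, 95% interval -0.64 to 0.05, limma adjusted p = 0.279). The activator gene pals-16 (Y82E9BR.4) had 18.9, 17.8 and 15.4 FPKM in mutant libraries, against 20.5, 17.9 and 18.0 FPKM in WT libraries (log2 difference -0.11, limma adjusted p = 0.592). Here only mutant replicate 3 stood clearly below the WT libraries.

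The other activator gene, pals-20 (Y82E9BR.25), was low, with 3.87, 4.16 and 2.14 FPKM in mutant libraries, against 4.26, 2.89 and 5.06 FPKM in WT libraries (log2 difference -0.22, 95% interval -0.91 to 0.47, limma adjusted p = 0.695). Its groups overlapped, and the sign of its difference turned without mutant replicate 3. Of its exon bases, 50.8% are shared with Y82E9BR.5 on the opposite strand, and the labels do not say whether reads were counted by strand.

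Beside them pals-18 (Y82E9BR.21) had 36.9, 34.3 and 36.9 FPKM in mutant libraries, against 44.8, 44.0 and 42.3 FPKM in WT libraries. All 3 mutant values were below the WT values, and the gene missed the threshold narrowly (log2 difference -0.27, SE 0.0591, limma adjusted p = 0.0516). With a minimum mean of 5 FPKM it passed (adjusted p = 0.0447). The values of pals-19 (Y82E9BR.23) were 33.3, 25.1 and 35.3 FPKM in mutant libraries, against 36.7, 35.5 and 32.5 FPKM in WT libraries (log2 difference -0.17, limma adjusted p = 0.52), where mutant replicate 2 was low and the other mutant libraries lay among the WT values. The sixth member of this group, pals-40, averaged 0.397 FPKM in the mutant and 0.320 FPKM in WT and was not tested.

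On chromosome IV, pals-30 (Y57G11B.1) went the other way from the called members, below the level needed for the test. It had 0.387, 0.290 and 0.309 FPKM in mutant libraries, against 1.15, 0.819 and 1.36 FPKM in WT libraries. All 3 mutant values were below the WT values, and these are about 11 reads in the mutant and 37.1 in WT. In the fit with no filter on low values its log2 difference was -0.66 (SE 0.144, limma adjusted p = 0.0660). Its neighbour pals-29 had a value above 0 in WT replicate 2 only.

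Of the genes outside the family beside the called members, those tested did not pass. Both nearest protein-coding neighbours of pals-6 are pals genes, so it adds none here. Of 6 such neighbours of the other called members 4 were tested, namely C29F9.12, nhr-280, B0284.3 and F26D11.12. Limma called 0 of them, with 0 at an unadjusted p under 0.05. Over all tested features 6.40% were called, and at an unadjusted p under 0.05 11.1% were higher and 11.8% lower. So few as 4 genes cannot describe the neighbours. The exons of pals-6, pals-23, pals-27 and pals-34 overlap no other annotated gene, and those of pals-26 share 6.25% of their bases with the pseudogene B0284.5. How far reads could be split between similar pals sequences was not measured. Exons are shared elsewhere too. The exon bases of pals-12 lie to 99.5% within those of pals-3, and pals-37 shares 39.3% with the antisense gene anr-30 and pals-32 shares 15.2% with str-46 on the opposite strand.

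The response to which many pals genes belong includes genes outside the family. A list of 15 held the cullin gene cul-6, its Skp1-related partners skr-3, skr-4 and skr-5, other parts of that ubiquitin ligase, eol-1, and genes of the F26F2 and B0507 clusters. Of 11 tested 3 fell and limma called 0 higher, with a median log2 difference of -0.01, beside 3.06% called lower over all tested features. The Skp1-related gene skr-4 had 42.1, 46.8 and 45.1 FPKM in mutant libraries, against 55.7, 56.8 and 60.3 FPKM in WT libraries (log2 difference -0.36, limma adjusted p = 0.0263). For B0507.8 the values were 1.71, 1.90 and 1.31 FPKM in mutant libraries, against 4.88, 4.73 and 5.84 FPKM in WT libraries (log2 difference -1.22, adjusted p = 0.0214). Its neighbour ddn-1 (B0507.10) had 3.23, 2.4 and 1.85 FPKM in mutant libraries, against 8.78, 6.06 and 8.28 FPKM in WT libraries (log2 difference -1.32, adjusted p = 0.0272). In all 3 genes the groups were apart, lower in the mutant. The same held for rcs-1, which was tested and did not pass. It averaged 87.5 FPKM in the mutant and 109 FPKM in WT (log2 difference -0.31, limma adjusted p = 0.0855). Of the 11 tested, groups were apart with the mutant lower in 4 and with the mutant higher in 0. Over all 17058 tested features, the mutant lay lower in 2565 and higher in 2329 by the same measure. The list also held 3 members that were not tested and whose groups were apart, picked after their values were seen. Higher in the mutant were B0507.6, with 1.22, 0.862 and 1.03 FPKM in mutant libraries, against 0.502, 0.592 and 0.409 FPKM in WT libraries, and fbxa-158, with 0.951, 1.995 and 1.21 FPKM in mutant libraries, against 0.563, 0.401 and 0.192 FPKM in WT libraries. Lower in the mutant was F26F2.4, with 0, 0 and 0.249 FPKM in mutant libraries, against 0.899, 0.482 and 0.916 FPKM in WT libraries. The number of the list that fell was 0 without mutant replicate 1, mutant replicate 2 or WT replicate 2, and 1 without WT replicate 1 or WT replicate 3.

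Of 7 regulators of the response outside the family 1 rose and 0 fell, and 6 did not pass, with a median log2 difference of 0.04. Over all tested features 3.34% were called higher and 3.06% lower, and a single call of 7 is too few to describe the list. The one that rose was pnp-1, a purine nucleoside phosphorylase gene that holds the response off. It had 131, 136 and 126 FPKM in mutant libraries, against 110, 108 and 108 FPKM in WT libraries (log2 difference 0.27, limma adjusted p = 0.0187). The mutant libraries were all higher, by a small amount. Without mutant replicate 1 or 2, or WT replicate 2 or 3, the adjusted p was 0.0808, 0.0734, 0.0891 and 0.0584.

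The calls of the 5 members differed in how often they held over the alternative settings, which changed the processing or left libraries out. The gene pals-26 passed in 16 of 16 alternative settings (adjusted p from 0.000496 to 0.0473). For pals-23 the call held in 15 of 16 and missed without replicate 1 of both groups (adjusted p = 0.0512). It held in 13 of 16 for pals-34 and in 12 of 16 for pals-6. The log2 difference kept its sign in each setting run for these 4 genes and for pals-27.

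**Figure D4:**
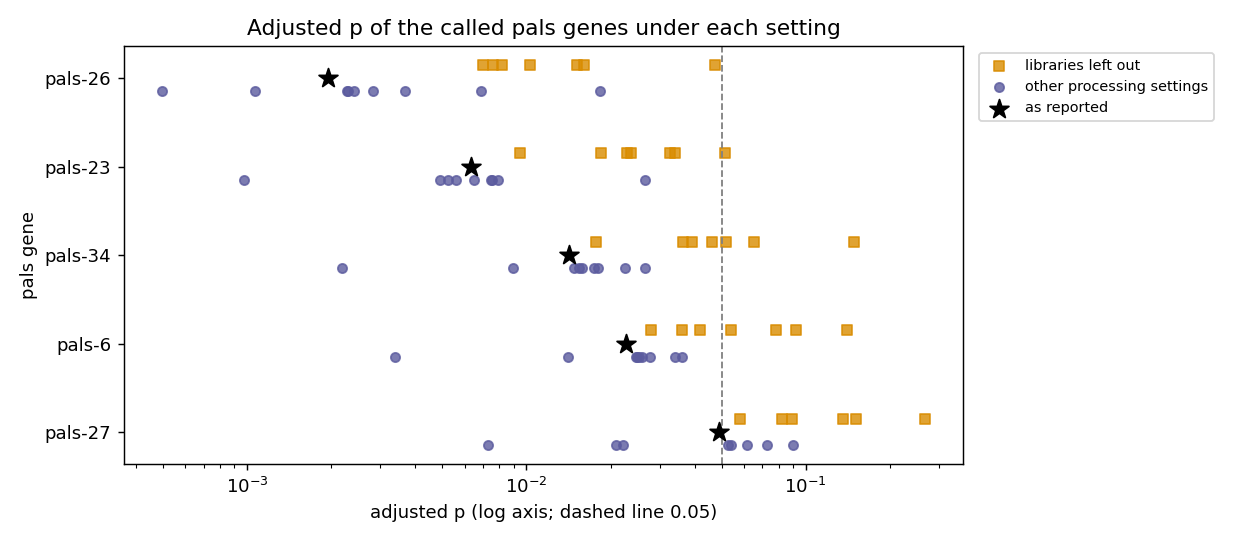
Adjusted p (log axis) of the 5 called pals genes as reported (star), with libraries left out (squares) and under other processing settings (circles); the dashed line is at 0.05. All points of pals-26 lie left of the line, and most of those of pals-27 lie right of it.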

How the data were processed

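Per the labels' protocols, RNA was taken up in Qiazol and made into libraries with an Illumina TruSeq kit. The titles gave the group of each sample. The deposited table holds FPKM values made by the authors, in 1 column for each library. The submitters' processing notes list TopHat2 2.0.7, Cufflinks 2.0.2 and Cuffdiff. Which genome build and annotation were used is not given in the sources used here, so no coordinates are printed. Symbols, exon lengths and gene order came from WBcel235 tables, and 44880 of 45343 features matched.

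Since FPKM is not a count, log2(FPKM + 1) was fitted with limma (version 3.58.1, under R version 4.3.3) on the group alone, with a trended prior variance and a minimum mean of 1 FPKM. The fit was checked on simulated data with known changes in features above 5 FPKM only. That check does not cover the recovery of changes in lower members. An adjusted p under 0.05 was called. Depth was estimated from the most common ratio between libraries at low values and from single-transcript genes of 1000 to 4000 nt. Only depths within a range set beforehand were searched, so the order of the depth was partly fixed in advance. Read numbers are FPKM times exon length times depth. They use the lengths of WBcel235 and are approximate.

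Values per library are given for blmp-1, for members with a mean of at least 1 FPKM and 8 fixed members, and for called genes of 2 lists of response genes and regulators. For pals-31, pals-37, pals-38 and pals-39, ranges stand in their place. Outside this rule, values per library are also given for the untested pals-28, pals-30, B0507.6, fbxa-158 and F26F2.4. Members, lists and tests were chosen with earlier results of these data known. Alternatives were 2 pseudocounts, 2 filters, 2 scalings, library weights, a replicate block, features of at least 200 nt, each library left out, and replicate 1 of both groups left out.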

Additional observations from a re-analysis of the deposited data

How the results depend on the processing

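Each of 16 alternative settings was compared with the reported values. Over all features the count was 2005 higher and 2112 lower with library weights, 181 and 117 without replicate 1 of both groups, and between 192 and 620 higher and 177 and 712 lower with 1 library left out. For pals genes the number that rose was 8 with library weights, where pals-1, pals-15 and pals-24 joined, 1 without replicate 1 of both groups (pals-26), and 2 to 4 with 1 library left out. The number that fell was 1 with library weights or a minimum mean of 5 FPKM (pals-18). The median log2 difference of tested members lay between 0.11 and 0.39. Of the response genes outside the family, 1 rose with library weights, 0 fell without replicate 1 of both groups, and 0 to 3 fell with 1 library left out. Of the regulators 0 rose without replicate 1 of both groups and 0 to 1 with 1 library left out, and 1 fell with library weights. The blmp-1 transcript was called lower in all 16 settings.

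The sign of the log2 difference turned for 3 uncalled members. For pals-25 it was -0.017 with library median scaling and between -0.032 and 0.051 with 1 library left out. For pals-20 it was 0.162 with library weights and between -0.396 and 0.0082 with 1 library left out, above 0 without mutant replicate 3. For pals-31 it was -0.0154 with quantile normalization, -0.12 without replicate 1 of both groups, and between -0.040 and 0.304 with 1 library left out, below 0 without WT replicate 1. The cause was not tested. A mean under 1 FPKM left pals-27 untested without mutant replicate 1, and a minimum of 5 FPKM left it and other low members untested.

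Deviations from the group means of same-numbered libraries correlated across features at 0.133, -0.0352 and 0.0697. For libraries of different number the correlations lay between -0.138 and 0.0565. Deviations from a mean of 3 libraries depend on each other, so these values cannot decide whether equal numbers mark pairs. With the replicate number as a block, 504 features rose and 425 fell, 4 pals genes rose (pals-27 missed, adjusted p = 0.0899) and 1 response gene outside the family fell. Depth limits members under about 1 FPKM, where single reads set the values.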
